A study of Mus musculus with 10 samples.

Results

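Box C/D small nucleolar ribonucleoproteins (snoRNPs) are the particles that guide the methylation of ribosomal RNA, and 8 genes for their proteins, their assembly and the nucleolus were followed across mouse embryonic stem (ES) cells. The genes were taken by name, with no threshold on their values, and all 8 were matched among the 22713 gene IDs of the mRNA tables. They are the core proteins Fbl, Nop56, Nop58 and Nhp2l1, the assembly factors Nufip1, Znhit3 and Znhit6, and nucleolin (Ncl), a nucleolar protein that is no stable subunit of the particle.

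The particle works as a guided enzyme. A box C/D snoRNA pairs with ribosomal RNA, fibrillarin (Fbl) transfers the methyl group to the ribose, Nhp2l1 (also called Snu13) binds the kink formed by boxes C and D, and Nop56 and Nop58 form the scaffold between them. Assembly needs a chaperone machine, R2TP, whose AAA+ ATPases are Pontin (Ruvbl1) and Reptin (Ruvbl2), together with the adaptors Nufip1, Znhit3 and Znhit6 (also called BCD1). Pontin, the protein that was removed in the cells described here, is therefore part of the machine that puts this particle together.

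The study asked how Pontin acts with the transcription factor Oct4 in ES cells. WT, OHT 3D and OHT 4D are 1 mRNA library each of Pontinf/f; CreER ES cells, a line from blastocysts whose floxed Pontin gene is cut by a Cre recombinase that 4-hydroxytamoxifen (OHT) activates, taken untreated and 3 or 4 days after OHT. Tc 2D is 1 library of ZHBTc4 ES cells, a line whose own Oct4 alleles are disrupted and whose Oct4 comes from a transgene that tetracycline (Tc) shuts off, 2 days after Tc. ZHBTc4 cells 4 days after infection with lentivirus gave 2 libraries with a control shRNA (pLKO control) and 2 with an shRNA against the intergenic RNA linc1253, and untreated ZHBTc4 cells gave 1 ChIP-seq library for Pontin and 1 for GFP, the control antibody. WT is the untreated form of the OHT libraries but not of Tc 2D, which comes from another line. WT is labelled as untreated and no vehicle is named for it. With 1 library a condition, the changes against WT have no replicate check and no test was made of them. The 3 comparisons with WT share that library, so an error in it would appear in each.

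The 8 mRNA libraries held 17187595 to 37951742 reads on genes. Values are normalized read counts in CPM, that is, reads scaled to the size and composition of the library, and the 2 tables, one with WT, OHT and Tc libraries and one with the shRNA libraries, were normalized separately. Of the targeted genes, Ruvbl1 had 198 CPM in WT but 33.3 on day 3 and 50.9 on day 4 of OHT, and Pou5f1, which encodes Oct4, was at 301 CPM in WT and 21.1 at Tc 2D. The level of linc1253 was not analysed here. Fibroblast genes were higher after OHT (15 of 16 listed feeder markers at both times, such as Acta2 with 5.90 CPM in WT but 94.6 on day 3 and 112 on day 4), beside 6.01% and 6.48% of all tested genes called higher on the 2 days. The exception was Fn1, the most abundant of them, with 794, 642 and 556 CPM, and the other 15 summed to 72.0, 403 and 497 CPM. Genes of trophectoderm, the outer layer of the blastocyst, were higher at Tc 2D (8 of 9 tested, beside 23.9% of all genes, with a sum of 85.6 CPM in WT against 486 CPM), but also after OHT (5 of 9 on day 3, where Eomes was lower, and 6 of 9 on day 4, with sums of 156 and 325 CPM). Primitive endoderm genes were called higher in 4 of 11 on day 3 (Hnf4a was lower), 8 of 11 on day 4 and 6 of 11 at Tc 2D, and pluripotency genes were lower at Tc 2D (10 of 12, beside 25.8% of all genes, with Tbx3 higher and a summed level of 3680 and 749 CPM). The share of these shifts in the values below was not tested. In bulk RNA, fewer cells of a type and less RNA per cell cannot be told apart.

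Some of these genes carry the particle's RNA as well as its proteins, and a few of those RNAs are shown because they hold the boxes to which the 4 core proteins assemble. In the NCBIM37 annotation, 11 snoRNA genes lie on the same strand inside 3 of the 8 genes, 4 in Nop56, 4 in Nop58 and 3 in Ncl. Of these, 9 are named as box C/D (SNORD) genes, 68 to 87 bases long, and 2 as box H/ACA (SNORA) genes, the other large class, which guides pseudouridylation. All 9 SNORD genes hold CTGA, the D box, in their last 20 bases, and 5 of the 9 hold an exact TGATGA, the core of the C box, in their first 20. Capitals mark these 2 boxes in 1 SNORD gene of each host, at chr2:130101242-130101309 (plus strand, an intron of Nop56), chr1:59761634-59761717 (plus strand, an intron of Nop58) and chr1:88252836-88252905 (minus strand, an intron of Ncl).
Snord110 (in Nop56): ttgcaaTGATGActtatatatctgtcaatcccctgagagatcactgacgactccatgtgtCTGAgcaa
Snord11 (in Nop58): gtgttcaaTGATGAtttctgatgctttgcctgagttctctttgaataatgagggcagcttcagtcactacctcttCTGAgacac
Snord82 (in Ncl): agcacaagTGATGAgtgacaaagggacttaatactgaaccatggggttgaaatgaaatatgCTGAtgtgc
The libraries were made from poly(A) RNA, which does not capture mature snoRNAs, so the CPM of Nop56, Nop58 and Ncl describe the host mRNA and not the RNAs inside it. In Nop56, 3 of the 4 snoRNA genes overlap an exon of some annotated transcript.

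All 8 genes were expressed in every library. They were above 1 CPM, the minimum for a tested gene, in both tables, the lowest value of any was 18.1 CPM (Znhit3 at Tc 2D), and at least 513 reads lay behind each value. To compare genes with each other, CPM was divided by the length of the longest coding sequence. On that scale WT held 1013 CPM per kb for Ncl, 511 for Nhp2l1, 294 for Fbl, 202 for Nop56 and 193 for Nop58. The assembly factors were lower, at 62.3 CPM per kb for Nufip1, 50.6 for Znhit3 and 34.4 for Znhit6. When the longest coding transcript was used as the length, the order among the core proteins was different, with Fbl at 248 CPM per kb in WT, Nop56 at 187, Nhp2l1 at 153 and Nop58 at 120, and the order of Nufip1 (22.7) and Znhit3 (23.0) was not clear. Ncl was then at 260 CPM per kb, close to Fbl. On both scales the mRNA of every core protein was above that of every assembly factor. The 4 core genes took 0.143% of the gene reads in WT.

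**Figure D1:**
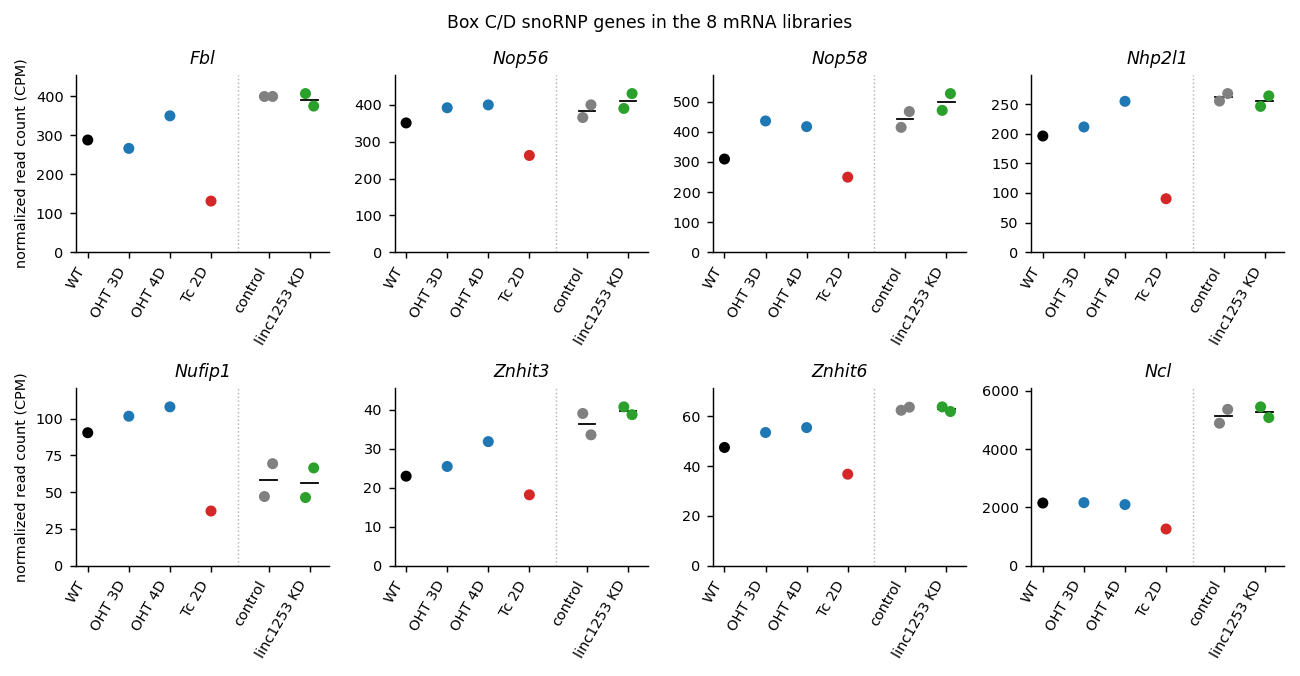
Normalized read count (CPM, vertical axes from 0) of the 8 genes in the 8 mRNA libraries, 1 point a library, with the table of WT, OHT and Tc libraries left of the dotted line and the separately normalized shRNA table right of it. Short lines are means of 2 libraries. In each panel Tc 2D is the lowest of the 8 points on the deposited scale. With equal library sums this did not hold for every gene, and Nop56 was at 308 at Tc 2D beside 279 and 295 in the control shRNA libraries.

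After Pontin depletion, none of the 8 genes changed by more than 1.5-fold. By that limit 6.01% of all tested genes were higher and 5.88% lower on day 3, and 6.48% and 8.89% on day 4. Among only 8 genes, the absence of such a change is therefore near the share over all genes. Fibrillarin mRNA had 288 CPM in WT but 266 on day 3 of OHT and 350 on day 4, that is, below WT at the first time and above it at the second. Nop56 had 351 CPM in WT but 392 on day 3 and 400 on day 4, and Nop58, its partner in the scaffold, was at 310, 436 and 417 CPM. Nhp2l1 had values of 196, 211 and 255 CPM in the same order. The mRNAs of Nop56, Nop58 and Nhp2l1 were thus above WT in both OHT libraries.

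Nufip1, the platform that bridges Nhp2l1 and the R2TP machine, had 90.4 CPM in WT but 102 on day 3 and 108 on day 4. Znhit3, which binds Nufip1 and stabilizes it, was at 22.9, 25.4 and 31.8 CPM, and Znhit6, which holds early assembly intermediates, was at 47.5, 53.5 and 55.5 CPM. All 3 assembly factors were above WT in both OHT libraries, and higher at OHT 4D than at OHT 3D. The counting intervals of their changes on the days overlapped for each of the 3. Both intervals include the counting error of the same WT library, so their overlap cannot decide the order of the days. The difference between the days was not tested. Ncl, by far the most abundant of the 8 in reads, had 2149, 2162 and 2095 CPM in that order.

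A gene was called where its log2-fold-change, on log2 of CPM plus 1, exceeded 0.58 in either direction, the limit used in the study's methods. At OHT 3D, 0 of the 8 genes were called, where the limit called 6.01% of the 13449 tested genes as higher and 5.88% as lower. At OHT 4D 0 of the 8 were called, beside 6.48% of tested genes higher and 8.89% lower. The log2-fold-change of Nop58 was 0.49 on day 3 (95% counting interval 0.45 to 0.54), the largest of the 8 there, and 0.43 on day 4 (0.38 to 0.47), and 91.8% and 88.9% of tested genes had a lower value. On day 4 Znhit3 had the largest value, 0.45 (0.30 to 0.61), whose interval overlaps that of Nop58, while its interval at OHT 3D (-0.023 to 0.31) included 0. The intervals cover counting error only, and between the 2 control shRNA libraries 3.10% of genes differed by more than 0.58. For Fbl the log2-fold-change was -0.11 on day 3 and 0.28 on day 4. The median over the 8 genes was 0.15 on day 3 and 0.27 on day 4, beside -0.018 and -0.0033 over all tested genes. The share of gene reads taken by the 4 core genes, which does not depend on the scaling, was 0.168% on day 3 and 0.183% on day 4, beside 0.143% in WT.

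**Figure D2:**
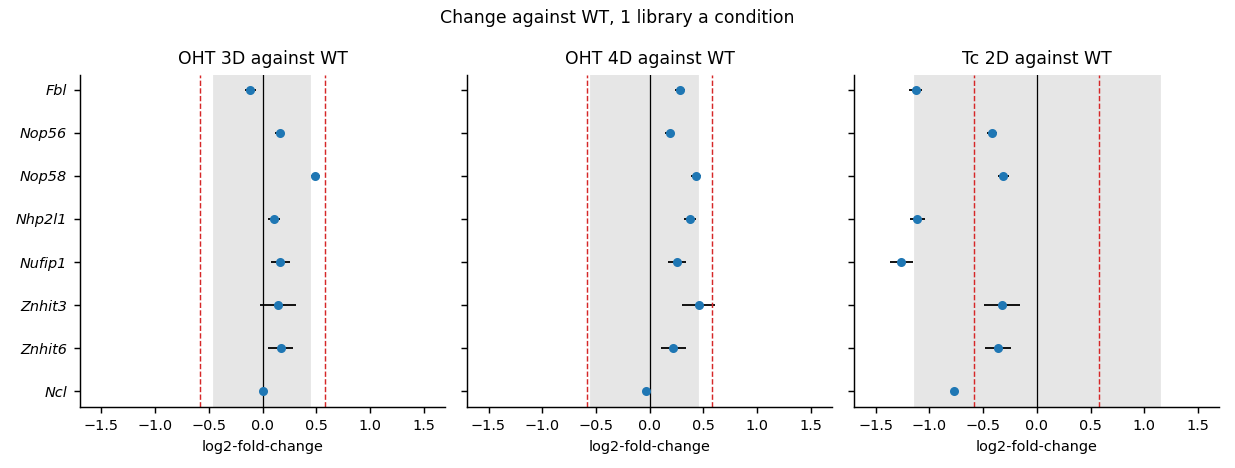
Log2-fold-change of the 8 genes against WT (horizontal axes) in the OHT 3D, OHT 4D and Tc 2D libraries, with 95% counting intervals as bars, the call limit of 0.58 as dashed lines and the middle 80% of all tested genes as grey bands. No gene passes the limit in the OHT panels, and Fbl, Nhp2l1, Nufip1 and Ncl are below it at Tc 2D.

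At Tc 2D against WT, which is of another line, the core split into 2 pairs. Against the ZHBTc4 controls described below, on a joint scale, Nop58 (-0.62) was also called lower. Fibrillarin fell from 288 CPM in WT to 131 CPM at Tc 2D, and Nhp2l1 from 196 to 90.3 CPM, so both were at less than 50% of WT. The scaffold mRNAs differed less, with 351 and 263 CPM for Nop56 and 310 and 250 CPM for Nop58. The log2-fold-change was -1.13 for Fbl (counting interval -1.19 to -1.07) and -1.11 for Nhp2l1 (-1.18 to -1.04), and it was -0.42 for Nop56 (-0.46 to -0.37) and -0.31 for Nop58 (-0.36 to -0.26), which were not called.

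Among the assembly factors, Nufip1 was at 90.4 CPM in WT and 37.1 at Tc 2D, a log2-fold-change of -1.26. Znhit3 was at 22.9 and 18.1 CPM (-0.32) and Znhit6 at 47.5 and 36.7 CPM (-0.36), and neither was called. Ncl was at 2149 CPM in WT and 1256 CPM at Tc 2D (-0.77). In all, 4 of the 8 genes were called lower and 0 higher, where 25.8% of tested genes were called lower and 23.9% higher. The median over the 8 genes was -0.60, beside -0.057 over all tested genes.

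The deposited CPM of Tc 2D summed to 638591, and those of the other libraries to between 775050 and 1015095, because the normalization had scaled this library down. When each library was instead scaled to the same sum, the median of all tested genes at Tc 2D moved to 0.24, 34.7% of genes were called higher and 15.9% lower, and the median over the 8 genes was -0.27. On that scale Fbl (-0.81), Nhp2l1 (-0.79) and Nufip1 (-0.95) were still called lower. Ncl was at -0.45 and no longer called, Nop56 (-0.095), Znhit3 (-0.014) and Znhit6 (-0.047) were near 0, and Nop58 was at 0.011.

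Ratios within a library are free of this choice. The CPM of Nhp2l1 was 0.68 times that of Fbl in WT and 0.69 times at Tc 2D, and it lay between 0.60 and 0.79 in all 8 libraries. The ratio of Nop56 to Fbl was 1.22 in WT, 1.47 and 1.14 on days 3 and 4 of OHT and 2.00 at Tc 2D, and in the shRNA libraries it was 0.92 to 1.15. For Nop58 the ratio to Fbl was 1.08 in WT, 1.64 and 1.19 on days 3 and 4 of OHT and 1.90 at Tc 2D, and 1.04 to 1.41 in the shRNA libraries. Relative to fibrillarin, both scaffold mRNAs were therefore at their highest in the Tc 2D library. Of the assembly factors, Znhit6 had a ratio to Fbl of 0.16 in WT against 0.28 at Tc 2D, and Znhit3 one of 0.080 against 0.14, while that of Nufip1 was 0.31 and 0.28. In the control shRNA libraries, of the same line as Tc 2D, it was 0.12 and 0.17 for Nufip1. There it was 0.16 in both for Znhit6, and 0.098 and 0.084 for Znhit3.

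Tc 2D and WT differ in cell line as well as in Oct4, and the line can be matched only with the control shRNA libraries, which were infected and stand in the other table. Those libraries held 399 and 400 CPM of Fbl, 366 and 400 CPM of Nop56, 415 and 467 CPM of Nop58 and 255 and 268 CPM of Nhp2l1. They held 47.0 and 69.3 CPM of Nufip1, 39.0 and 33.5 CPM of Znhit3, 62.4 and 63.7 CPM of Znhit6 and 4891 and 5368 CPM of Ncl. Nufip1 was lower there than in WT, and Ncl higher. After all 8 libraries were normalized together by TMM, the mean of the 2 controls against WT had a log2 difference of -0.84 for Nufip1 and 1.07 for Ncl, and the other 6 genes were between -0.060 and 0.46. Line, infection, table and sequencing instrument cannot be told apart in these differences.

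Against the ZHBTc4 controls on that common scale, the change at Tc 2D was -1.41 for Fbl, -1.33 for Nhp2l1 and -1.83 for Ncl. It was -0.62 for Nop58, -0.78 for Znhit3, -0.575 for Znhit6, -0.35 for Nop56 and -0.42 for Nufip1. Against these controls 5 genes were called lower, Fbl, Nhp2l1 and Ncl as against WT, and Nop58 and Znhit3, which were not called against WT. Nufip1 was no longer called, and Znhit6 stood just inside the limit. Of all tested genes 22.0% were lower and 25.0% higher. With equal sums against the same controls, 3 were called lower, Fbl (-0.96), Nhp2l1 (-0.88) and Ncl (-1.38), beside 11.7% of genes lower and 42.2% higher. Fbl and Nhp2l1 were the only genes of the 8 called lower in all 10 settings run for control, scaling, pseudocount, filter and limit. The limit of 1 was not combined with equal sums, where Fbl (-0.81) and Nhp2l1 (-0.79) against WT are inside it. The filters could not change a call, as the lowest value of the 8 genes was 18.1 CPM. The call of Nufip1 held in 8 of the 10, each with WT as the control, and it had a change of 0.022 against the ZHBTc4 controls with equal sums. The call of Ncl also held in 8 of the 10.

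**Figure D3:**
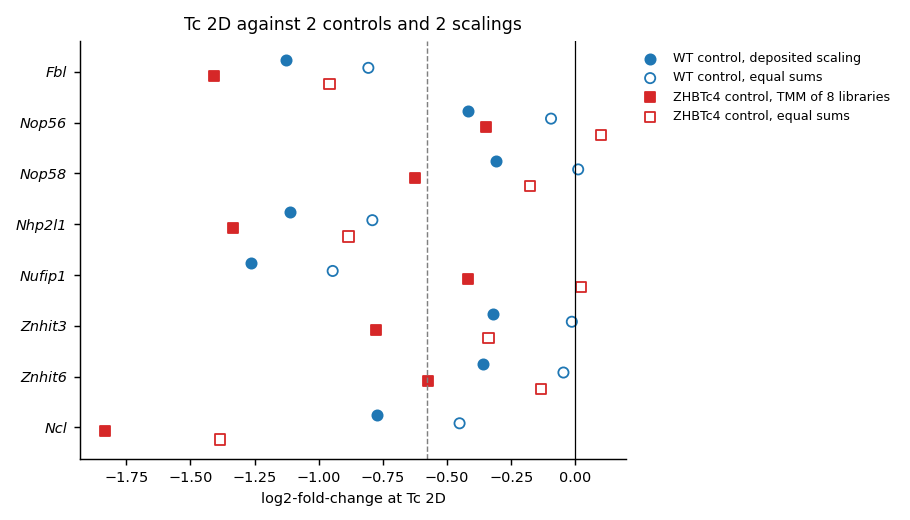
Log2-fold-change of the 8 genes at Tc 2D (horizontal axis) against WT (circles) and against the mean of the 2 ZHBTc4 control shRNA libraries (squares), with the deposited or joint TMM scaling (filled) and with equal library sums (open). The dashed line is the call limit of -0.58. All 4 symbols of Fbl and of Nhp2l1 are left of it, and those of Nufip1 lie on both sides.

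Knockdown of linc1253 gave no call among the 8 genes. Fbl was at 407 and 375 CPM in the knockdown libraries, a mean of 391 ± 22.7 CPM, beside 400 ± 0.11 CPM in the controls (SD, n = 2 each). Nop56 was at 391 and 431 CPM, Nhp2l1 at 246 and 264 CPM, Znhit3 at 40.7 and 38.7 CPM, Znhit6 at 63.8 and 61.9 CPM and Ncl at 5453 and 5085 CPM, and the knockdown and control libraries of these genes overlapped. Nufip1 was at 46.3 and 66.4 CPM, and replicate 2 was above replicate 1 by a log2 difference of 0.55 in the control and 0.51 in the knockdown, the widest spread within a group among the 8.

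Nop58 was the only one of the 8 without overlap, at 471 and 527 CPM in the knockdown and 415 and 467 CPM in the control. The mean was 499 ± 39.5 CPM against 441 ± 37.1 CPM (SD, n = 2 each), and 18.8% of tested genes had both knockdown libraries above both controls and 19.2% had both below. The log2-fold-change of Nop58 was 0.18 (SE 0.11, 95% interval -0.077 to 0.43), and limma gave an adjusted p of 0.738 over 13407 genes. The log2-fold-changes of the other 7 were between -0.041 (Nufip1, 95% interval -0.60 to 0.52) and 0.13 (Znhit3, -0.15 to 0.41), with adjusted p-values of 0.819 to 0.992 in limma. The interval of Fbl ran from -0.25 to 0.18. In limma 0 genes passed an adjusted p of 0.05 in either direction (0% of those tested), with 496 higher and 503 lower at an unadjusted p of 0.05. The quasi-likelihood test of edgeR on recovered reads also called 0, and DESeq2 called 22 higher and 28 lower, with none of the 8 among them. Nothing in the labels says that the replicates were separate cultures, so the p-values measure the spread between these libraries, which may be technical. When the replicate number was added as a block, limma gave Nop58 an adjusted p of 0.0396, and it called 6.96% of all tested genes higher and 7.66% lower, so 1 call among the 8 is near the share over all genes.

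The wider assembly machinery was read from lists of related genes. Counts called after OHT stand beside 6.01% of all tested genes higher and 5.88% lower on day 3, and 6.48% higher and 8.89% lower on day 4, so in a list of 4 or 6 genes a count of 0 is near the share over all genes. In the R2TP machine, Ruvbl1 itself was the one gene of 4 called after OHT, with log2-fold-changes of -2.54 and -1.94. Its partner Ruvbl2, which forms a ring with Pontin, had 327 CPM in WT but 311 on day 3 and 364 on day 4, and Rpap3, the tetratricopeptide subunit that binds Hsp90, was at 70.4, 62.9 and 65.5 CPM. At Tc 2D all 4 were called lower against WT, beside 25.8% of all tested genes, the largest changes being those of Rpap3 (-1.33), Ruvbl1 (-1.21) and Ruvbl2 (-0.95), and with equal sums 3 were, beside 15.9%. Against the ZHBTc4 controls 3 were lower, beside 22.0% of all genes, with Pih1d1 at 0.24, and with equal sums 2 were lower, beside 11.7%, and 1 higher, beside 42.2%. Ruvbl1 itself was at -0.85 against the ZHBTc4 controls after joint TMM normalization. By immunoblot and quantitative RT-PCR the paper found Pontin protein and mRNA not significantly different after Oct4 depletion. Its immunoblot compared ZHBTc4 cells with and without Tc, and its RT-PCR was normalized to Gapdh. The value of -1.21 is against WT of another line, so it is not a like comparison. Of the 6 factors for the trafficking and the cap of snoRNAs, 0 were called after OHT and 2 lower at Tc 2D, near the 25.8% of all genes, with a median of -0.24. With equal sums 1 was lower against WT and the median was 0.078. Against the ZHBTc4 controls 3 were lower, and 1 with equal sums. Lower against WT on the deposited scale were Nolc1 (-1.71), a chaperone that shuttles between the nucleolus and Cajal bodies, and Rrp9 (-0.78), a protein of the U3 particle, itself a box C/D snoRNP. The list of 7 spliced snoRNA host genes was not analysed here.

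The H/ACA particle has 4 core proteins of its own, of which Nhp2 is a relative of Nhp2l1. All 6 of its core and assembly genes were called lower at Tc 2D, led by the core proteins Nop10 (-3.18, 73.4 CPM in WT and 7.19 at Tc 2D) and Nhp2 (-1.15) and by the assembly factor Naf1 (-0.97), with a median of -0.94, where 25.8% of all tested genes were called lower. On neither day of OHT was any of the 6 called, near the shares of all genes called on those days (6.01% higher and 5.88% lower, then 6.48% and 8.89%), with medians of -0.038 and 0.17. Against the ZHBTc4 controls 5 of the 6 were called lower at Tc 2D, beside 22.0% of all genes. With equal sums 5 were against WT, beside 15.9%, and 3 against those controls, beside 11.7%.

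Other lists held factors that make the precursor of ribosomal RNA or act on it. Of 34 genes of the small subunit processome, the large complex on which U3 works, 0 were called at OHT 3D or OHT 4D, and 20 were called lower at Tc 2D with a median of -0.68, led by Imp3 (-2.47), Utp3 (-2.41) and Nol10 (-1.33). Of 29 large subunit assembly factors tested, 0 were called after OHT and 20 were lower at Tc 2D with a median of -0.75, led by Rrs1 (-1.68), Gnl3l (-1.45) and Pes1 (-1.41). RNA polymerase I and its factors had 0 of 14 called after OHT and 5 lower at Tc 2D, the largest being Ubtf (-1.54), which binds the ribosomal gene promoter, Polr1d (-1.36), a subunit shared with polymerase III, and Rrn3 (-1.04), the initiation factor. No gene of these 3 lists was called higher in any of the 3 comparisons. These counts stand beside shares of all tested genes of 6.01% higher and 5.88% lower on day 3 of OHT, 6.48% and 8.89% on day 4, and 23.9% and 25.8% at Tc 2D. With the ZHBTc4 controls the numbers lower were 21, 15 and 7, beside 22.0% of all genes. They depended on the scaling, and with equal sums against WT 7 of the small subunit processome (median -0.36), 9 of the large subunit factors (median -0.42) and 3 of the polymerase I list (median -0.021, with 1 higher) were called lower, where 15.9% of all genes were. With equal sums against the ZHBTc4 controls the numbers lower were 8, 6 and 2, beside 11.7% of all genes, and 1 gene of the polymerase I list was higher. In the linc1253 knockdown, 0 genes of any list passed limma's adjusted p of 0.05. The same was true of all 13407 tested genes (0%), so these counts say nothing particular to the lists.

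**Figure D4:**
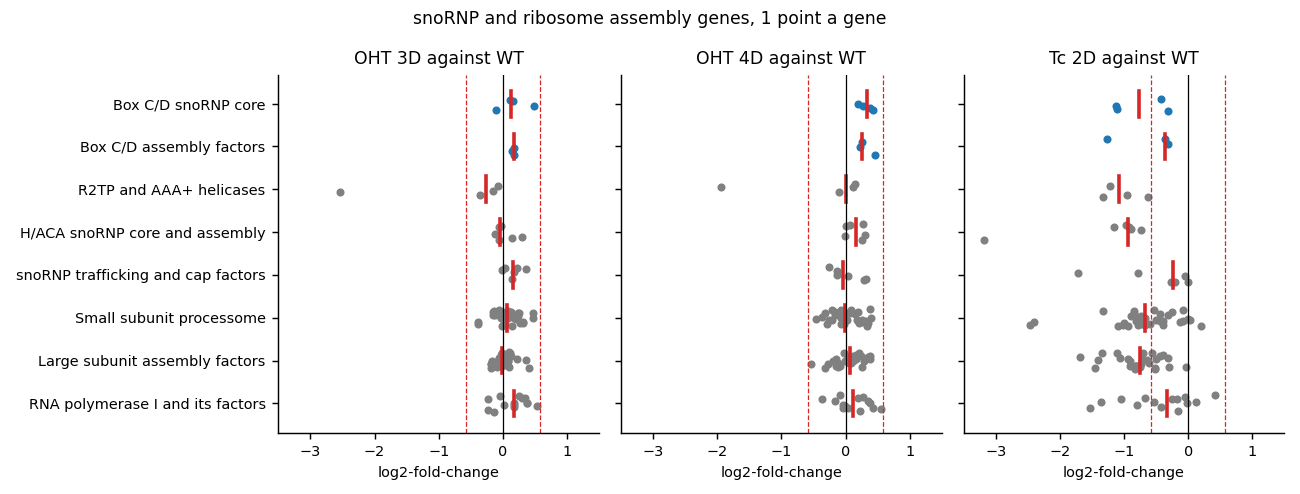
Log2-fold-change against WT (horizontal axes) of box C/D genes (blue) and of related lists (grey), 1 point a gene, with the median of each list as a red bar and the call limit of 0.58 as dashed lines. After OHT the one point outside the limit is Ruvbl1, and at Tc 2D on the deposited scale the lists have medians of -1.08 to -0.24 (with equal sums that of the trafficking list is 0.078).

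Genes with the pattern most like that of Fbl, Nop56 and Nop58 were ranked by Pearson's r with the mean log2 level of these 3 over the 8 mRNA libraries, each gene centred within its table, among 9954 genes. Tyms, the thymidylate synthase, had the highest r (0.997), followed by Ddx18 (0.995), a nucleolar RNA helicase, Eif2b1 (0.992), a translation initiation factor subunit, Trp53 (0.992), which encodes p53, and R3hcc1 (0.991). Lrpap1, Hmgn2, Apex2, Tmem216 and Txnl4a completed the first 10, with r of at least 0.989. Nhp2l1 ranked 61 (0.981) and Znhit6 ranked 81 (0.979), whereas Nufip1 ranked 778, Ncl 917 and Znhit3 1814. The points share the libraries and their scaling, and the Tc 2D library lies farthest from the others, at -0.58 for the mean of the 3 genes, so the ranking describes these 8 libraries.

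Pontin ChIP-seq was read at the promoters of the 8 genes, in a window that ran from 2.5 kb before the start site to 500 b after it. Nhp2l1 had 95 Pontin and 18 GFP reads, a log2 ratio of 1.16 after scaling by library size (95% exact binomial interval 0.094 to 2.35). For the intervals the read totals were halved, as though the 2 mates of a pair made 1 count, but mates were not identified. Nop58 had 96 and 21 reads (0.95), Nop56 132 and 30 (0.89) and Nufip1 105 and 25 (0.83). Znhit6 had 76 and 21 reads (0.61), Ncl 81 and 26 (0.39), Znhit3 117 and 38 (0.38) and Fbl 74 and 28 (0.16, interval -0.76 to 1.16). The intervals overlap, so the order among the 8 promoters is not settled at this depth.

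The median over the 8 promoters was 0.72, beside 0.34 over 21178 promoters with reads in both libraries and 0.47 over 10272 promoters of genes above 5 CPM in the control shRNA libraries. Of the 8, only Nhp2l1 was above a log2 ratio of 1, as were 14.8% of all promoters and 18.0% of the expressed ones. Within 1 kb on either side of the start site the log2 ratio was 2.21 for Nhp2l1, 1.97 for Nop56 and -0.058 for Fbl. The other genes were between 0.16 (Znhit6, beside 0.61 in the main window) and 0.98 (Nop58). The median over the 8 promoters was 0.73 there, beside 0.53 over all promoters. This narrower window holds few GFP reads at Nhp2l1 and Nop56, and no interval is given for it, so the order of the genes in it is not settled. There is 1 library for each antibody, so no replicate check can be made.

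**Figure D5:**
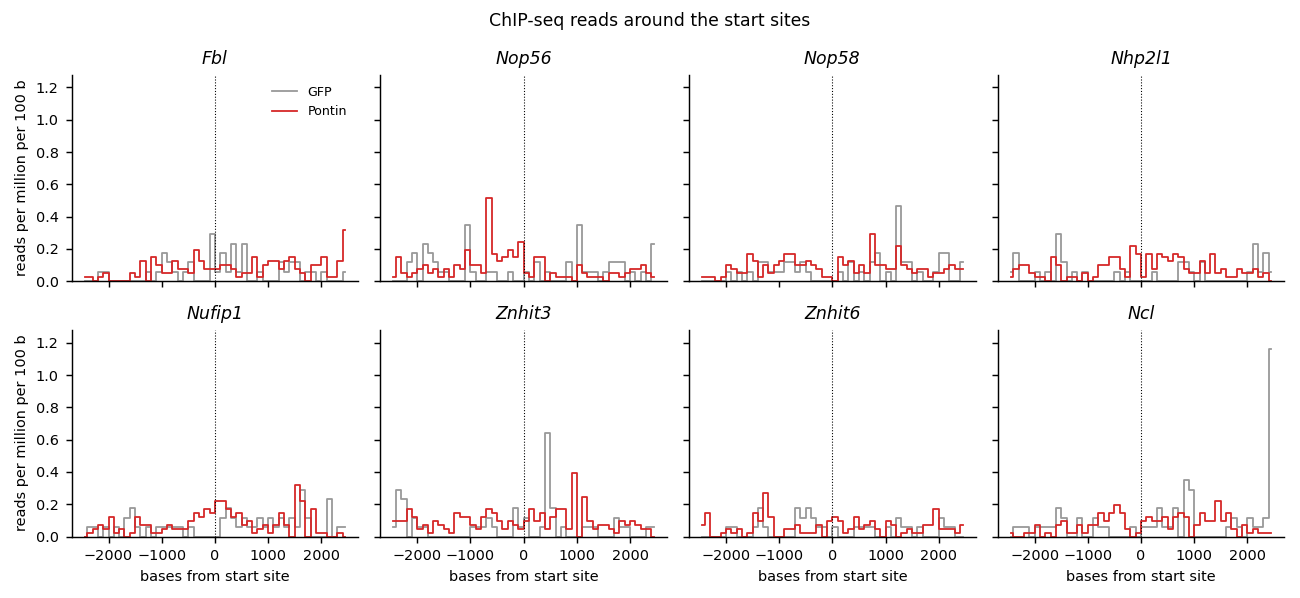
ChIP-seq reads in 100-base windows, scaled by library size to RPM (vertical axes) against the distance from the start site in bases (horizontal axes), for Pontin (red) and GFP (grey) at the 8 genes. Windows hold few reads, and single windows of either library reach above the rest, up to 1.16 RPM for GFP near Ncl.

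The promoters of Fbl and Nhp2l1 are printed because these were the core genes called lower at Tc 2D. Of 4 motifs searched on both strands from 250 bases upstream to 50 bases downstream of the start, only CACGTG, the E-box bound by Myc and Max, and CCGGAAG, the site of ETS factors, were found among the 8 genes. CACGTG was in Fbl alone, 11 bases upstream of the start, and is held by 7.78% of 22367 promoters and 10.6% of the expressed ones. CCGGAAG was in Fbl and Nhp2l1, and is held by 10.8% of all and 18.8% of expressed promoters. The other two, the palindromic elements of Banp and of Nrf1, were in 0 of the 8, and in 0.604% and 1.18% of all promoters. The last 100 bases before each start are given from NCBIM37, with motifs in capitals (CTTCCGG is the reverse complement of CCGGAAG), at chr7:28954665-28954764 (plus strand) and chr15:81878029-81878128 (minus strand).
Fbl: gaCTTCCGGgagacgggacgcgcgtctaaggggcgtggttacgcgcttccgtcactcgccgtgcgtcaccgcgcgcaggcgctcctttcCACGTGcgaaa
Nhp2l1: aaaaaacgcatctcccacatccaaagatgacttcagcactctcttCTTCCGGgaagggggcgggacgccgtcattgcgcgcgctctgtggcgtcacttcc
The motifs do not overlap each other. A match is a run of letters in the window and says nothing on which factor was bound there.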

How the data were processed

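Libraries were assigned to groups from the sample labels. The authors trimmed reads with cutadapt, aligned them to NCBIM37 with TopHat (up to 10 locations a read), used HTSeq for counts per gene and deposited CPM that the TMM method of edgeR had normalized. Reads shared with near-identical copies may thus be placed uncertainly. All deposited values were whole reads (100% within 0.01 read), which gave the depths and the counting intervals. The deposited ChIP-seq files hold 1 read a line with its mapping quality score (lowest 5 for GFP, 6 for Pontin), with 40729076 Pontin and 17185883 GFP reads. Versions of the authors' tools are not given in the sources used here.

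Genes above 1 CPM in at least 1 library of a table were tested, and 1 CPM was added before log2. Changes against WT beyond 0.58 were called. The knockdown was tested with limma 3.58.1 with trend and Benjamini-Hochberg adjustment, and edgeR 4.0.16 and DESeq2 1.42.0 on recovered reads were alternatives, in R 4.3.3. Both the limma and the ChIP-seq steps were run on simulated data with large changes. Such runs do not show whether changes as small as those of the 8 genes in the knockdown would be found. Annotation was GENCODE vM1. The 8 genes were named in every comparison, and of other lists up to 3 called genes with the largest changes. The members and lists were chosen with earlier results of these data known. Intervals cover counting error only. Alternatives covered the pseudocount, filter, scaling, limit, control, block and each left-out replicate.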

Additional observations from a re-analysis of the deposited data

Results flagged for a closer look

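Fbl moved in opposite directions at the 2 times after OHT, its log2-fold-change being -0.11 on day 3 and 0.28 on day 4. Both values are under the call limit of 0.58, both are read against the same WT library, and the difference between the times was not tested.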

How the results depend on the processing

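The counts of the 8 genes called at OHT 3D, OHT 4D and Tc 2D stayed within 1.5 times the reported ones under each alternative pseudocount, filter, limit, scaling and control that was run, although which genes were called lower at Tc 2D differed as described. Of the called values, that of Nufip1 changed direction, from -1.26 to 0.022 at Tc 2D with the ZHBTc4 controls and equal sums. Among values not called, Nop56 went from -0.42 to 0.10 in that setting, and with equal sums against WT Nop58 went from -0.31 to 0.011 at Tc 2D and Ncl from -0.036 to 0.0072 at OHT 4D. In the knockdown, Fbl, Nhp2l1, Nufip1, Ncl and Znhit6 changed sign when a replicate was left out, the farthest being Nufip1, from -0.041 to 0.24 without control replicate 2. Nop58 kept its sign, at 0.093 without control replicate 1 and 0.26 without control replicate 2, beside 0.18. For linc1253, the replicate block called 1 of the 8 genes, Nop58, and 933 genes higher and 1027 lower in all, where the fit without the block called 0. The labels give the libraries the same numbers but nothing that pairs them, and with 2 pairs the correlation of 0.673 between their differences is a hint only. Over all genes the exact test of edgeR called 38 higher and 42 lower, DESeq2 22 and 28, limma without control replicate 2 called 1 and 2, and without knockdown replicate 1 called 14 and 3. Leaving out each replicate in turn gave 0 to 0 calls among the 8, which shows no stability, since the full fit called none and in each such fit 1 group is a single library assumed to vary like the other group. The median ChIP-seq log2 ratio of the 8 promoters was 0.63 with 1 read per position and strand, 0.38 with scaling to the median promoter and 0.73 within 1 kb of the start, beside 0.72. The median of all promoters moved as well, to 0.29, 0 and 0.53 in the same order, beside 0.34. Single promoters moved more. With 1 read per position and strand Ncl went from 0.39 to 0.13, Znhit6 from 0.61 to 0.27 and Znhit3 from 0.38 to 0.56. Scaling to the median promoter subtracts the same amount from every promoter, so it leaves their order unchanged. The WT, OHT and Tc libraries have no replicates, so the spread between cultures of one condition is unknown for them.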
